A study of Hordeum vulgare with 6 samples.

Results

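The plastid of barley keeps a small genome of its own, and most genes described here belong to the machinery for expressing that genome. They are the genes on the plastid sequence whose names start with rps or rpl (ribosomal proteins), rpo (RNA polymerase), mat (splicing maturase), clp (protease), inf (translation initiation factor), ccs, cem or ycf (accessory factors and open reading frames). This rule on names found 31 of the 39841 genes in the deposited table, out of 75 on the plastid sequence, and 29 of the 31 are described. The other 44 plastid rows were photosynthesis genes. The rule uses names only and no measured value, although it was set with earlier results of these data known. It also takes in cemA, ccsA, ycf3, ycf4 and ycf15, which are not part of the transcription or translation apparatus and are counted with the others as machinery genes.

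The libraries came from shoots of the barley line Rolap at day 23, grown under 16 h of light at 22 °C with several seedlings sharing a pot. All plants stood in the same soil, which held 8 mg of phosphorus per kg. The low-Pi group (3 libraries) received no more, and the Pi-sufficient control group (3 libraries) received 60 mg of phosphorus per kg as potassium phosphate. The kit selects polyadenylated RNA, and plastid messages in plants carry adenine tails mainly as a mark for decay, so a level below describes captured RNA and not the whole plastid message pool. In such bulk shoot RNA, fewer plastid-rich cells and less plastid RNA in each cell cannot be told apart.

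A plastid ribosome is built from proteins encoded partly in the plastid and partly in the nucleus. The plastid-encoded RNA polymerase, whose core subunits are the products of rpoA, rpoB, rpoC1 and rpoC2, transcribes most photosynthesis genes in green leaves. A second polymerase of phage type is encoded in the nucleus and is known for transcribing the rpoB operon and other genes of the expression machinery. Many plastid genes are transcribed together in long units that are later cut and spliced, so neighbours on one strand often begin as one RNA.

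The value available for each gene was its highest group mean, that is the larger of the low-Pi mean and the control mean, on a scale per transcript length that the table does not name. It is called the level below. The table names neither the group that gave it nor any value per library, so levels stand without a standard deviation, and no order between genes of similar level could be tested against replicates. The change of these genes in low-Pi is held only as the authors' own comparison and is not used here, so no statement on the direction of the phosphate response is made. Each level is an upper limit for both group means.

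Of the 29 genes, 20 had a level above 0 (69.0%), against 29 of the 44 plastid photosynthesis genes (65.9%) and 67.8% of all genes in the table. Their median level was 0.516, with undetected genes counted at 0, against 1.37 for the photosynthesis genes and 0.189 for all genes. Levels of at least 1 were reached by 10 of the 29 genes and a level of at least 10 by 1, the maturase gene matK. Of all 39841 genes, 14357 reached a level of at least 1 and 4408 a level of at least 10. Together the machinery genes made up 1.94% of the summed plastid level. The gene psbA, for the D1 protein of photosystem II, alone had a level of 1387 and was the highest of the plastid. Without psbA the photosynthesis median was 0.665, so these medians, with undetected genes at 0, move with the gene that lies in the middle. Over detected genes alone the median was 0.932 for the machinery, 1.22 for all genes and 12.9 for photosynthesis, or 10.6 without psbA. The machinery median thus lay above that of all genes with undetected genes at 0 and below it over detected genes. A level of at least 10 was reached by 15 of the 44 photosynthesis genes, or 14 without psbA. Of the 29 genes, 21 lay below the photosynthesis median, 16 below that median without psbA and 13 below the median of all genes. Genes are not replicates, and these shares and medians are descriptions without a test.

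**Figure D1:**
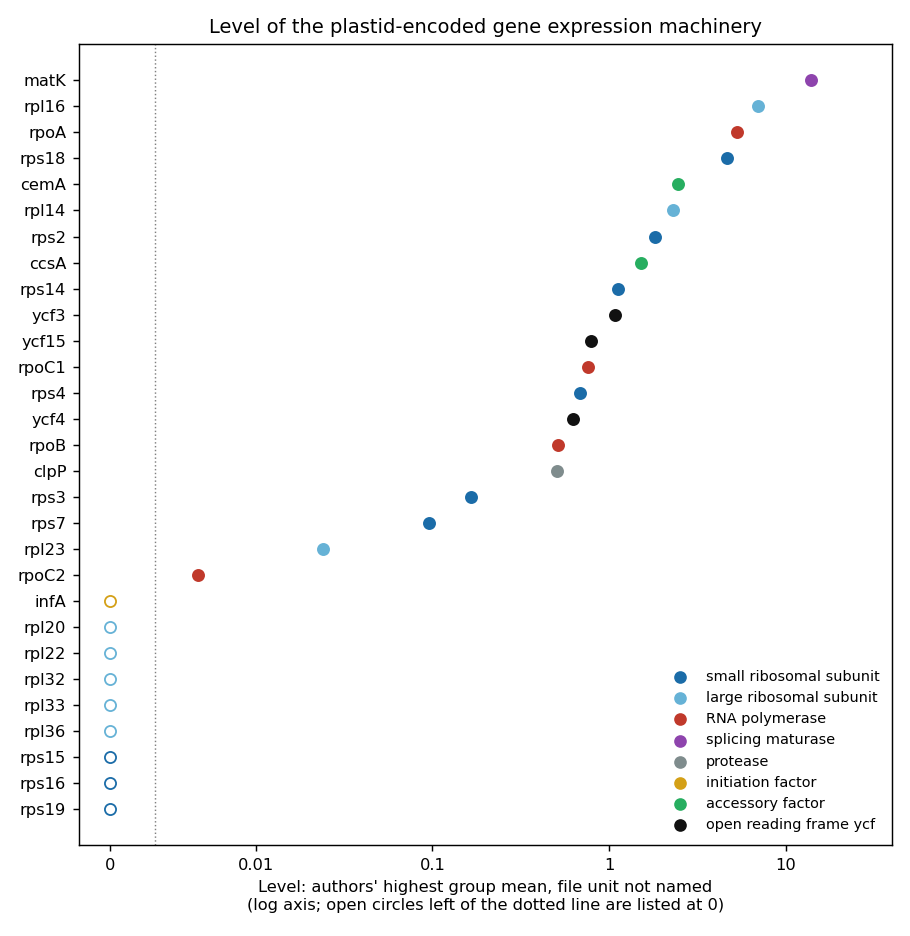
Level of each of the 29 plastid machinery genes (horizontal log axis, the authors' highest group mean), coloured by role, with open circles for the 9 genes listed at 0. Levels run from 0.00470 for rpoC2 to 13.9 for matK, and 8 of the 9 open circles are ribosomal protein genes.

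The table also shows how much reading stands behind a level. A level multiplied by the gene's span in kilobases is proportional to the number of fragments counted. The smallest products in the table recurred at 6 fixed values, between 0.00630 and 0.00979, which were shared by 446 genes. That number of steps equals the number of libraries, and a step is taken here as the worth of 1 counted fragment in 1 library. On this basis rpl23 rested on 1 fragment and rpoC2 on 3, rps7 on 5 to 7 and rps3 on 13 to 18, all in the group with the higher mean. At the other end, matK rested on 2180 to 3386 fragments. Bounds could be set for 19 of the 20 detected genes, of which 9 had at least 100 fragments. For ycf3, whose span includes introns, no bound is given. These bounds cover counting only and not the spread between plants.

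Detection was lowest for the large subunit of the ribosome among the larger roles. Of 9 genes for proteins of the small subunit, 6 were detected. The highest was rps18 with a level of 4.62, followed by rps2 with 1.82 and rps14 with 1.12. For rps4, whose counterpart in Escherichia coli binds the small ribosomal RNA early in assembly, the level was 0.681. Lower still were rps3 with 0.166 and rps7 with 0.0954. The other genes, rps15, rps16 and rps19, were listed at 0.

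Of 8 genes for proteins of the large subunit, 3 were detected, and these lay far apart. The gene rpl16 had a level of 6.91, second of all 29 genes and higher than 85.6% of the genes in the table. Its neighbour rpl14 had a level of 2.30. For rpl23 the level was 0.0239, the value that 1 fragment gives for a gene of 354 bases. Listed at 0 were rpl20, rpl22, rpl32, rpl33 and rpl36, and the last 3 of these span under 300 bases. Outside the ribosomal proteins 11 of 12 genes were detected, and the exception was infA, for an initiation factor of translation. All 12 span at least 342 bases, so role and gene length are not separated in these counts.

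For comparison, the mitochondrial genome of the table holds 7 rows for ribosomal protein genes, of which 5 had a level above 0. Of these rows, 4 are copies of rpl5 and rps2, so the rows stand for 5 genes, 3 of them detected. Their levels reached at most 0.270, while 5 of the 17 plastid ribosomal protein genes had a level of at least 1. Of the mitochondrial rows, none had such a level. The median was 0.0171 over the mitochondrial rows and 0.0239 in the plastid set, where 8 of the 17 genes were listed at 0.

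All 4 polymerase genes were detected, at unequal levels. The gene rpoA, for the alpha subunit, lies on the minus strand (75352 to 74333 on the plastid sequence of IBSC_v2) and had a level of 5.28. The genes rpoB, rpoC1 and rpoC2, for the beta-type subunits, follow one another on the plus strand (19544 to 29503). Their levels were 0.516 for rpoB, 0.763 for rpoC1 and 0.00470 for rpoC2. The level of rpoA was thus 6.92 times that of rpoC1. The level of rpoC1 was 162 times that of rpoC2, although rpoC2 is the longest gene of the group with 4434 bases and only 209 bases separate them. The value of rpoC2 rests on 3 fragments, whereas rpoB rested on 171 to 264 and rpoC1 on 160 to 248.

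The highest level of all 29 genes, 13.9, belonged to matK, whose product helps to splice introns out of plastid RNA. The table lists it as matK_2 on the minus strand (3204 to 1669). Its neighbours psbA and rps16 are those of matK in the RefSeq plastid annotation of MorexV3, which holds 1 gene of that name. The level of matK was 2.01 times that of rpl16, the next gene, and made up 30.8% of the sum over all 29 genes. Reading in the direction of transcription, psbA follows 525 bases after matK, and its level was 99.8 times as high.

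Among the remaining genes, cemA, for a protein of the plastid envelope, had a level of 2.45. The gene ccsA, whose product attaches haem to cytochrome c, had a level of 1.51. It lies inside the annotated span of ndhH on the same strand, a span of 12911 bases (101953 to 114863) that also covers rpl32, and both ndhH and rpl32 were listed at 0. The genes ycf3 and ycf4, whose products assist the assembly of photosystem I, had levels of 1.07 and 0.626. The open reading frame ycf15, which was the only one of the 29 without a match in the RefSeq plastid annotation, had a level of 0.793. For clpP, the catalytic subunit of a protease in the stroma, the level was 0.508, on 34 to 52 fragments.

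How levels varied between genes that lie next to each other on one strand was followed next. Genes with at most 1000 bases between them were joined into a run, and 8 runs held more than 1 machinery gene, 24 genes in all. In 1 of these runs rps15 is joined to rpl32 and ccsA only through the long annotated span of ndhH. A long stretch of machinery genes lies on the minus strand from rpl23 to rpoA (82962 to 74333). Under this rule it falls into separate runs, with breaks between rpl23 and rps19 and between rps3 and rpl16. Of 9 genes described there, 5 were detected. In the order of transcription, rpl23 at 0.0239 was followed by rps19 and rpl22, both at 0, then by rps3 at 0.166, rpl16 at 6.91 and rpl14 at 2.30. Further on, infA and rpl36 were both listed at 0, and rpoA closed the stretch at 5.28. The 3 highest levels of the stretch thus lay on both sides of infA and rpl36.

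**Figure D2:**
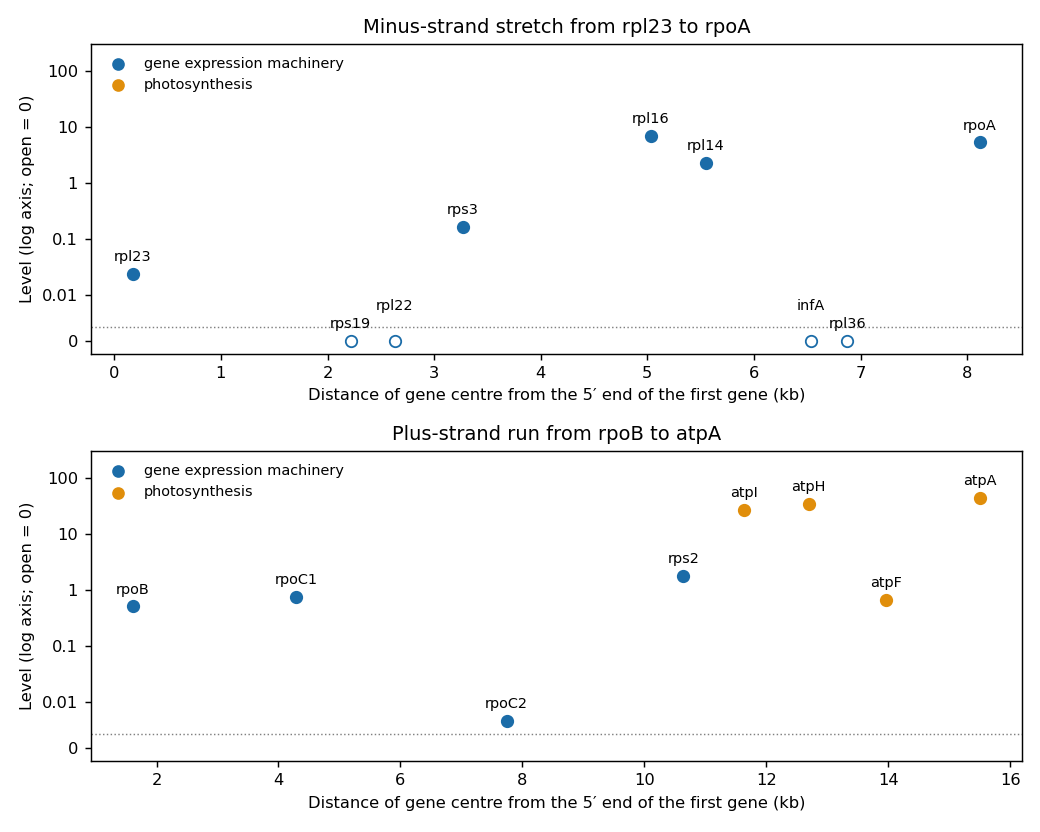
Level (vertical log axis, open circles for genes listed at 0) against distance of the gene centre from the 5′ end of the first gene (kb), for the minus-strand stretch from rpl23 to rpoA and the plus-strand run from rpoB to atpA. In the upper panel rpl16, rpl14 and rpoA stand above 2 while 4 of the 9 genes are at 0, and in the lower panel rpoC2 lies below both of its neighbours.

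On the plus strand, rpoB, rpoC1, rpoC2 and rps2 run directly into genes of the ATP synthase. The level of rps2 was 1.82, and 264 bases further on atpI, for a membrane subunit of that enzyme, had a level of 27.3. The low value of rpoC2 thus sat between rpoC1 and rps2, and rps2 was 387 times as high. On the minus strand, psaB, for a core protein of photosystem I, had a level of 70.8, and rps14, which begins 146 bases after it, a level of 1.12, so psaB was 63.0 times as high. Upstream in the same run, ycf3 stood at 1.07 and psaA, the partner of psaB, at 50.4. Likewise rps7 had a level of 0.0954 and the neighbouring ndhB, for a subunit of the NADH dehydrogenase-like complex, 4.70. The genes ycf4, cemA and petA, which follow one another on the plus strand, lay closer together, at 0.626, 2.45 and 3.30, where petA encodes cytochrome f. There were 22 such neighbour pairs with at least 1 machinery gene. Both genes were detected in 12, and in 7 of these the levels differed by at least 10 times. These 7 either set a machinery gene against a photosynthesis gene or held rpoC2, which rests on 3 fragments. Every other pair of detected machinery genes differed by at most 3.91 times (ycf4 and cemA). Pairs of photosynthesis genes alone were not counted. In 5 of the 22 pairs 1 gene was listed at 0 and the other was not, and in 5 both were. The latter include ndhH paired with rps15 and with rpl32, and rpl32 lies inside the annotated span of ndhH.

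Detection was uneven over gene length. None of the 5 machinery genes with a span under 300 bases (rpl32, rpl33, rpl36, rps15 and rps19) was detected. From 300 to under 600 bases 8 of 11 were detected, and from 600 bases upwards 12 of 13, with rps16 as the exception. These classes use annotated spans. The spans of rps16 and ycf3 include introns, so their exon length is below the span and their class by exon length is not known here. The photosynthesis genes gave 6 of 18, 6 of 8 and 17 of 18 in the same classes, and the short genes among them included atpH with a level of 35.0. These length classes were chosen after the values were seen. Across the 29 genes, Spearman's rho between level and span was 0.46, and across the 20 detected genes it was -0.065. For the photosynthesis genes it was 0.66 over all 44 and 0.50 over the 29 detected. The 44 include ndhH, listed at 0, whose annotated span of 12911 bases also covers other genes. The genes share libraries, so these are descriptions. Among detected genes, the level thus went with the span in the photosynthesis genes and showed little relation to it in the machinery genes, a difference that was not tested.

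**Figure D3:**
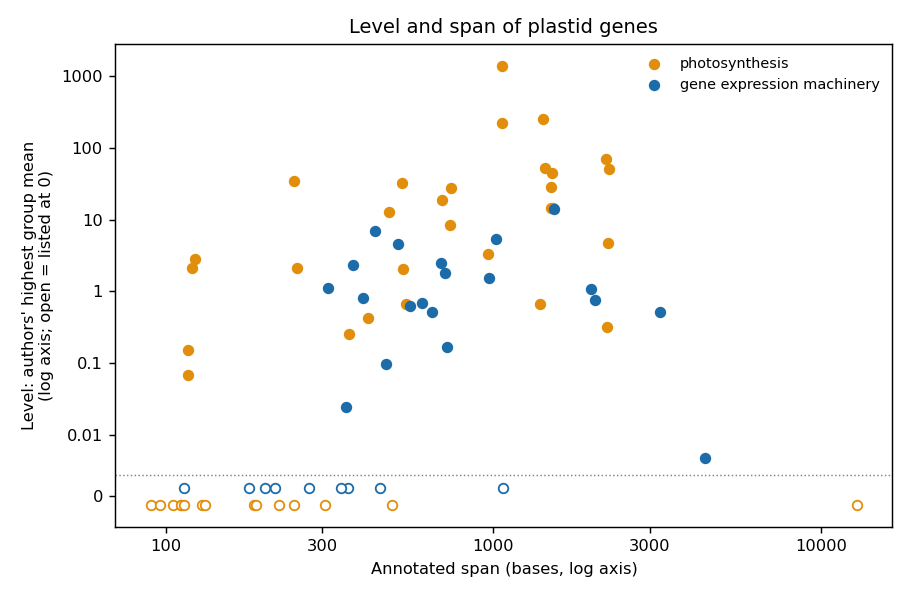
Level (vertical log axis) against annotated span in bases (horizontal log axis) for the 29 machinery genes and the 44 plastid photosynthesis genes, with open circles for genes listed at 0. All 5 machinery genes under 300 bases are at 0, and the highest levels of the plot belong to photosynthesis genes.

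A value of 0 is no proof that a gene is silent. The photosynthesis gene psaC, whose product is a core subunit of photosystem I that no green leaf can do without, was also listed at 0, as were psbH and 13 further photosynthesis genes. For the 8 machinery genes at 0 other than rps16, a single fragment in 1 library would have given a level between 0.0140 and 0.0859, depending on the gene and the library. How the authors set the strand and assigned reads with more than 1 match was not given in the sources used here. Of the 29 genes, 4 (rpl23, rps7, rps15 and rps19) carry more than 1 copy in the RefSeq plastid annotation while the table lists 1, so their levels are uncertain. Of these 4, rps15 and rps19 were at 0 and rpl23 and rps7 were among the lowest detected. The part of copy number and of length in these values was not tested.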

How the data were processed

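The authors made poly(A) shoot libraries (Lexogen SENSE mRNA-Seq V2) from 1500 ng of total RNA with spike-in RNA, read in pairs of 150 cycles. Reads were trimmed, mapped to IBSC_v2 (Ensembl Plants release 42) and compared in CLC Genomics Workbench, version not given in the sources used here. In the deposited table stand coordinates (printed counting from 1) and 1 expression signal per gene, the highest group mean. The authors' methods name TPM and define RPKM, both per exon length, but the file names no unit. Its 5 comparison columns hold the authors' fold changes and p-values of low-Pi against control and are not used. No value per library was used, so the number of reads per library is unknown and no test between groups was run. The fragment steps described in the results differ by at most 1.55 times between libraries.

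Of the 31 members, 2 are not reported here and enter no count beyond the tally of members. Members were taken by name with Python 3.11.15 and pandas 2.3.3. Fragment steps were products of level and span under 0.01 that recurred, at 6 decimals, in at least 20 genes. Names were matched to the RefSeq table of MorexV3 (28 of 29 members), for names and gene order only. Its rpl2 and rps12 have no row on the plastid sequence used and are not analysed here. Described in full were the 5 highest and 5 lowest detected members, all members other than ribosomal proteins, those at 0 and those with repeated copies, and for scale the highest photosynthesis gene and the median of that list. Photosynthesis neighbours, psaC and psbH were named after their values were seen. The functions were tested on simulated data. Members and lists were chosen with earlier results of these data known.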

Additional observations from a re-analysis of the deposited data

How the results depend on the processing

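The count of 20 detected genes became 10 at a level of at least 1 and 1 at a level of at least 10. It was 18 without the 4 genes with several RefSeq copies, a setting chosen after seeing the data. The median level of 0.516 became 0.932 without undetected genes and 0.0954 over ribosomal protein and polymerase genes alone. The median was 0.681 without the 4 genes with several copies and 0.722 with spans of at least 300 bases, both chosen after seeing the data. The photosynthesis median of 1.37 became 0.665 without psbA, also chosen after seeing the data. No name was repeated on the plastid sequence, so settings that merge or leave out repeated names gave the same values. Spearman's rho of 0.46 was 0.57 without spans over 2000 bases and turned to -0.065 over detected genes, a setting chosen after seeing the data that leaves out the 9 genes at 0. A gap of at most 300 bases left 5 runs with several machinery genes in place of 8, and 1 of the 5 is joined by the annotated span of ndhH. Means within a role exceeded the medians, at 0.945 against 0.166 for the small subunit, 1.15 against 0 for the large subunit and 1.64 against 0.640 for the polymerase. No paired analysis was possible because the table holds no value per library, and for the same reason no library could be left out. The levels of rpl23, rpoC2, rps7 and rps3 rest on the fewest counted fragments.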
